A study of Mus musculus with 4 samples.

Results

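The early embryonic growth programme was followed here through mouse heart valve development by 8 genes: the RNA-binding proteins Lin28a, Lin28b, Igf2bp1, Igf2bp2 and Igf2bp3, the chromatin proteins Hmga1 and Hmga2, and the transcription factor Mycn. They were found by symbol in the gene tables of all 4 libraries, as 8 of 27998 genes, and each symbol matched 1 row. The study profiled single cells by droplet-based 3' RNA sequencing, which counts transcripts as unique molecular identifiers (UMIs). The tissues were the atrioventricular canal at embryonic day 9.5 (E9.5, 1 library) and, from the mitral valve, E16.5 embryos (1 library) and newborns (P0, 2 libraries). All animals were C57BL/6 mice that carried Tie2-Cre and the Rosa26 tdTomato reporter, and tissue of at least 60 embryos a stage was pooled and digested, so no value below belongs to a single animal. Tie2-Cre is driven by an endothelial promoter and marks endothelial cells, the mesenchyme that comes from them and blood cells, and the cells were sorted for tdTomato. The reporter is not in the gene tables, so the sort could not be checked. All groups share this line and sort, and no group lacks Cre.

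Filtering kept 1194 cells of the E9.5 library (median 24621 UMIs a cell), 311 of the E16.5 library (2357), and 282 and 176 of the P0 libraries (5159.5 and 4433). A stage difference is therefore also a difference in tissue, depth and library, and these cannot be told apart. Cells were clustered without the 8 genes and named from marker genes. E9.5 held endothelial-like (89 cells), cushion mesenchyme-like (102), posterior heart field mesoderm-like (85), proepicardial or epicardial-like (26), pharyngeal mesenchyme-like (21), endoderm or epithelial-like (24), cardiomyocyte-like (508) and erythroid-like (243) cells. The 508 cardiomyocyte-like cells are not of the lineage that Tie2-Cre is known to mark. Nor are the posterior heart field, proepicardial or epicardial, pharyngeal and epithelial-like classes among the cells named above as marked by it. Clusters that met no naming threshold were 1 of 83 cells led by Dlk1, Ptn and Col1a1 (6.95% of E9.5 cells), 1 of 13 cells led by Pf4 and Prtn3 (1.09%), 3 clusters at P0 replicate 1 (13.8%, 12.8% and 9.22%) and 1 at P0 replicate 2 (17.6%). No E16.5 cluster was left unnamed. The naming thresholds were set after the clusters had been seen.

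LIN28A and LIN28B bind the precursors of the let-7 microRNAs and block their maturation, and mature let-7 in turn represses Lin28, Igf2bp and Hmga2 transcripts through sites in their 3' untranslated regions (3' UTRs). The IGF2BP proteins bind mRNAs such as those of Igf2, Myc and Actb and control their stability, transport and translation. HMGA proteins bind AT-rich DNA and shape chromatin, and MYCN drives growth and ribosome production and is needed for the embryonic heart wall. The programme is known to be high in early embryos and to decline as let-7 accumulates. Because the let-7 seed links these genes, its mature sequences and the matching sites are shown first. The assay does not measure microRNAs, so the sites describe the transcripts and say nothing of regulation in these cells.

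A few let-7 family members are given to show the shared seed (RefSeq, GRCm38.p6), with the seed, bases 2 to 8, in capitals. Of 10 mature let-7 names in the RefSeq table, 9 shared this seed, and let-7j was the exception.
let-7a-5p: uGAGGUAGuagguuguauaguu
let-7d-5p: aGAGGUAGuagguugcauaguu
let-7g-5p: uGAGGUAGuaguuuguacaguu
let-7j: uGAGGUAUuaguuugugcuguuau

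The reverse complement of the shared seed, CTACCTC, was searched on the sense strand of the longest annotated 3' UTR of each gene (GENCODE vM21, GRCm38). One site is printed for each gene that had any, 25 bases long, with the match in capitals, because these 7 transcripts are the ones that carry the motif.
Lin28a, chr4:134005181-134005205, minus strand: cctgttgaaCTACCTCatttttgcc
Lin28b, chr10:45381014-45381038, minus strand: gcgggaagtCTACCTCatgcaagca
Igf2bp1, chr11:95961770-95961794, minus strand: cgaagtaaaCTACCTCaaggtgtga
Igf2bp2, chr16:22059465-22059489, minus strand: aaataaaagCTACCTCaggtgtttt
Igf2bp3, chr6:49086779-49086803, minus strand: tttactcaaCTACCTCaggtattca
Hmga1, chr17:27563283-27563307, plus strand: gttcacaaaCTACCTCtggacggtt
Hmga2, chr10:120364216-120364240, minus strand: attcaatttCTACCTCagcatcagt

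Lin28b, Igf2bp1 and Hmga2 had 4 matches each, Lin28a had 2, and Igf2bp2, Igf2bp3 and Hmga1 had 1. Mycn had none in its 913-base 3' UTR. Thus 7 of the 8 genes held the motif, against 9.02% of 21028 genes overall and 13.6% of the 10508 genes whose 3' UTR lengths lay in the same range (913 to 6337 bases). The genes were picked as members of a known let-7-linked programme, so this share describes the list. A match of these letters is not shown to be a working site.

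At E9.5 all 8 genes had UMIs in every class of cells, and the question was whether the programme was even over the canal or biased to a lineage. Levels are UMIs of the gene per 10000 UMIs of the class, with exact Poisson or conditional binomial intervals (95%, counting error only). There is 1 library at E9.5, so none of the differences between its classes has a replicate check or a test. Over the 951 cells that were not erythroid-like, Hmga2 stood at 3.57, Igf2bp1 at 1.27, Igf2bp3 at 0.989, Igf2bp2 at 0.908, Mycn at 0.784, Hmga1 at 0.551, Lin28a at 0.252 and Lin28b at 0.105. These levels count 3' ends and depend on how well each 3' end is captured, so they order the genes only loosely. The depth behind them ran from 8140 UMIs of Hmga2 to 271 UMIs of Lin28b over all kept E9.5 cells.

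**Figure D1:**
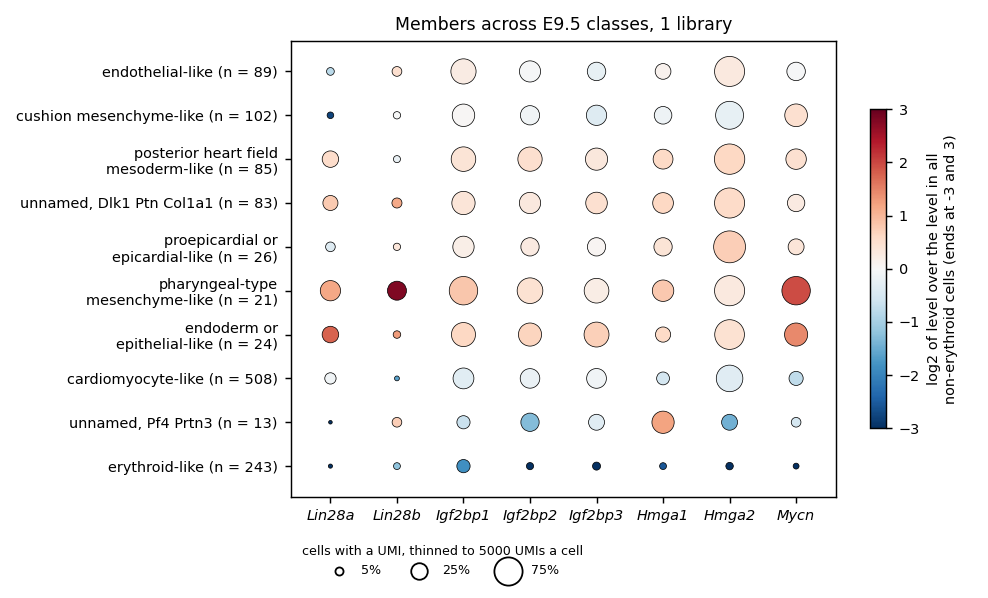
Dots show the 8 genes (columns) in each E9.5 class (rows, with n the number of cells). Colour is the log2 of the class level over the level in all non-erythroid-like cells, and dot area is the percent of cells with at least 1 UMI after thinning every cell to 5000 UMIs. The erythroid-like row has small, blue dots for all 8 genes, while Igf2bp1, Igf2bp2 and Igf2bp3 vary little over the other large classes.

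The spread over classes of at least 30 cells was not particular to these genes. With erythroid-like cells among the 6 classes, 8 of 8 genes were at least 2-fold apart between their highest and lowest class, against a background of 78.8% of 8677 genes. Without erythroid-like cells, 4 of 8 were at least 2-fold apart, against 44.8% of genes. With globin genes left out of the totals the count was 8 of 8, against 67.0%. The 4 genes apart outside the erythroid-like cells were Lin28a (12.1-fold, 5.87 to 29.0), Lin28b (6.98-fold, 4.43 to 11.02), Mycn (2.38-fold, 2.03 to 2.80) and Hmga1 (2.20-fold, 1.82 to 2.63). Hmga2 (1.97-fold), Igf2bp3 (1.82-fold), Igf2bp1 (1.66-fold) and Igf2bp2 (1.63-fold) lay just under the 2-fold line, and the median gene was 1.90-fold apart.

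Lin28a was the most uneven member. It stood at 0.858 per 10000 in endoderm or epithelial-like cells (41 UMIs), 0.559 in pharyngeal mesenchyme-like cells (39), 0.431 in the Dlk1-led cluster (83) and 0.368 in posterior heart field-like cells (71). It was at 0.235 in cardiomyocyte-like cells (280), 0.193 in epicardial-like cells (16), 0.143 in endothelial-like cells (30) and 0.0356 in cushion mesenchyme-like cells (8). The cushion mesenchyme, which arises from the endothelium of the canal, was thus at 0.25 times the endothelial-like level (0.10 to 0.56) and 0.15 times the cardiomyocyte-like level (0.06 to 0.30). Neighbours in this order had overlapping intervals except for posterior heart field-like against cardiomyocyte-like cells and endothelial-like against cushion mesenchyme-like cells. In cells thinned to 5000 UMIs, 38.1% of pharyngeal mesenchyme-like and 2.9% of cushion mesenchyme-like cells had a Lin28a UMI, against 0.4% of erythroid-like cells.

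Lin28b, the paralogue of Lin28a with the same let-7 function, had another order. Its level was 0.731 in pharyngeal mesenchyme-like cells (51 UMIs), 0.251 in epithelial-like cells (12), 0.228 in the Dlk1-led cluster (44), 0.147 in endothelial-like cells (31), 0.133 in epicardial-like cells (11), 0.102 in cushion mesenchyme-like cells (23), 0.0881 in posterior heart field-like cells (17) and 0.0328 in cardiomyocyte-like cells (39). Cardiomyocyte-like cells were therefore low in Lin28b, at 0.22 times the endothelial-like level (0.14 to 0.37), while they were above it in Lin28a, at 1.65 times (1.13 to 2.49). Cushion mesenchyme-like cells held 3.12 times the cardiomyocyte-like level of Lin28b (1.78 to 5.36). Across the 13 clusters that were not erythroid-like, the log2 levels of Lin28a and Lin28b had a Pearson r of 0.37. Clusters share 1 library and the rarest gene has few UMIs in most of them, so correlations here are descriptions.

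Among classes of at least 30 cells other than the erythroid-like, the 3 Igf2bp genes had the smallest ratios of highest to lowest level, 1.66 for Igf2bp1, 1.63 for Igf2bp2 and 1.82 for Igf2bp3, beside 1.97 for Hmga2. Igf2bp1 ranged from 1.01 in cardiomyocyte-like cells to 2.26 in pharyngeal mesenchyme-like cells, with 1.31 in cushion mesenchyme-like and 1.51 in endothelial-like cells. Igf2bp2 ranged from 0.793 in cardiomyocyte-like to 1.44 in epithelial-like cells, with 0.845 in cushion mesenchyme-like and 0.889 in endothelial-like cells. Igf2bp3 ranged from 0.760 in cushion mesenchyme-like to 1.61 in epithelial-like cells, with 0.827 in endothelial-like and 0.925 in cardiomyocyte-like cells. These ranges cover the named classes outside the erythroid-like cells, and neighbours in each order overlapped in their intervals except for Igf2bp1 in cushion mesenchyme-like over cardiomyocyte-like cells. In the 13 cells led by Pf4 and Prtn3, Igf2bp2 was lower, at 0.370. Between cushion mesenchyme-like and endothelial-like cells the ratios were 0.87 (0.74 to 1.02), 0.95 (0.77 to 1.17) and 0.92 (0.74 to 1.14) for Igf2bp1, Igf2bp2 and Igf2bp3, so no difference was detectable at this depth.

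Both chromatin genes had their lowest level, among named classes outside the erythroid-like cells, in the cardiomyocyte-like class as a whole. Hmga2 reached 5.93 in epicardial-like cells, 5.46 in posterior heart field-like cells and 5.32 in the Dlk1-led cluster, against 4.86 in epithelial-like, 4.36 in pharyngeal mesenchyme-like, 4.35 in endothelial-like, 3.01 in cushion mesenchyme-like and 2.77 in cardiomyocyte-like cells. Cushion mesenchyme-like cells had 0.69 times the endothelial-like level of Hmga2 (0.63 to 0.76). Hmga1 was at 0.960 in pharyngeal mesenchyme-like, 0.837 in epithelial-like, 0.830 in posterior heart field-like, 0.736 in epicardial-like, 0.604 in endothelial-like, 0.498 in cushion mesenchyme-like and 0.383 in cardiomyocyte-like cells. Its highest value, 1.26, was in the 13 cells led by Pf4 and Prtn3, where Hmga2 was only 1.31. Over the 13 non-erythroid-like clusters the r between Hmga1 and Hmga2 was 0.08.

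Mycn was highest in pharyngeal and epithelial-like cells, whose intervals overlapped neither each other nor any other class. It was at 3.04 in pharyngeal mesenchyme-like cells (212 UMIs) and 2.14 in epithelial-like cells (102), then 1.10 in posterior heart field-like, 1.09 in cushion mesenchyme-like, 1.03 in epicardial-like, 0.761 in endothelial-like and 0.461 in cardiomyocyte-like cells. Posterior heart field-like and cushion mesenchyme-like cells could not be separated (ratio of cushion to heart field 0.99, 0.82 to 1.19). In cushion mesenchyme-like over endothelial-like cells Mycn had a ratio of 1.43 (1.16 to 1.75), and it alone among the 8 had an interval above 1. After thinning to 5000 UMIs, 48.0% of cushion mesenchyme-like, 31.5% of endothelial-like and 17.9% of cardiomyocyte-like cells had a Mycn UMI.

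Posterior heart field mesoderm-like cells, which feed the inflow side of the heart, exceeded the cardiomyocyte-like class as a whole for all 8 genes. The ratios ran from 1.36 (1.18 to 1.57) for Igf2bp3 to 2.69 (1.43 to 4.87) for Lin28b. Hmga2 was at 1.97 times (1.84 to 2.11) and Mycn at 2.38 times (2.03 to 2.80). The share of all genes higher in heart field-like cells was not counted, so the count of 8 is not read as a trait of the members. It also did not hold for every cardiomyocyte-like cluster. In the one led by Nppa and Casq1, Lin28a was at 0.389, beside 0.368 in heart field-like cells.

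Within the myocardium the genes did not move together. The 5 cardiomyocyte-like clusters are called by their leading genes: Nppa and Casq1 (77 cells), Myh6 and Actc1 (142), Myl2, Myh7 and Nppa (65), Actn2 and Myl7 (114), and Rspo3 and Cox6a2 (110). In that order Hmga2 was at 1.45, 1.80, 3.23, 3.68 and 3.79, so the Rspo3-led cluster held 2.61 times the Nppa-led level (2.26 to 3.03). In the same order Mycn was at 0.623, 0.611, 0.725, 0.254 and 0.220, and its level in the Rspo3-led cluster was 0.35 times the Nppa-led one (0.24 to 0.50). Lin28a was at 0.32 times in that comparison (0.20 to 0.51). Igf2bp2 and Igf2bp3 had ratios of 1.02 (0.81 to 1.30) and 0.90 (0.73 to 1.11) between the same clusters. Mycn was also 2.85 times higher (2.104 to 3.88) in the Myl2-led than in the Actn2-led cluster, while Hmga2 differed by a ratio of 0.88 (0.78 to 0.98).

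**Figure D2:**
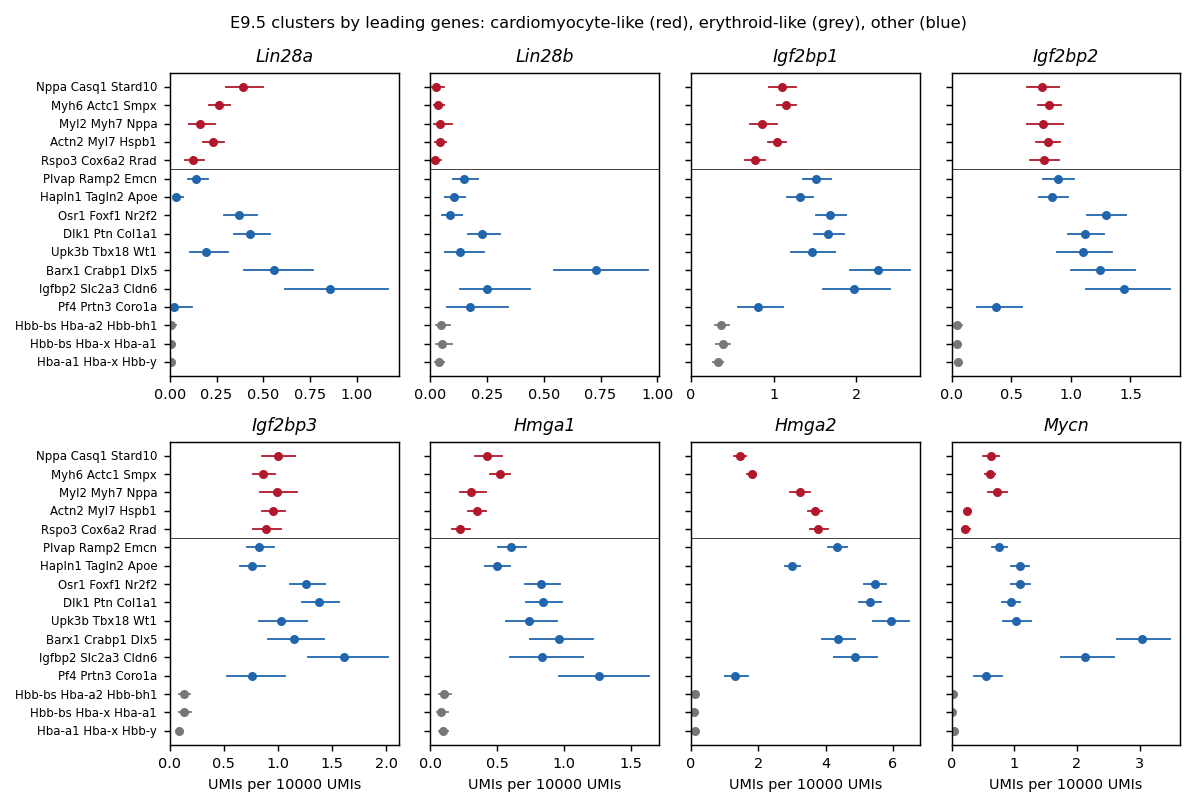
Each panel shows 1 gene over the 16 E9.5 clusters, which are named by their leading genes on the y axis, with the level in UMIs per 10000 UMIs on a linear x axis whose range differs by gene. Points are levels and bars 95% Poisson intervals, with cardiomyocyte-like clusters in red, erythroid-like in grey and others in blue. Hmga2 goes from 1.45 to 3.79 over the red clusters, and Mycn and Lin28a are lower in the Rspo3-led than in the Nppa-led cluster.

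Erythroid-like cells were the lowest class for 7 of the 8 genes among classes of at least 30 cells. The share of all genes that were lowest there was not counted, so this is not read as a trait of the members. The median gene was 3.12-fold apart with this class and 1.90-fold apart without it. Genes that red cells do not make also had UMIs in erythroid-like cells, and they served as a gauge of background. These were the muscle genes Tnnt2 (4.54% of the level in all other cells), Myl7 (5.19%) and Actc1 (3.90%). The others were the collagen gene Col1a1 (3.87%), the endothelial gene Plvap (5.61%) and the cushion gene Hapln1 (3.72%). The source of these UMIs was not tested. Lin28a at 2.99% (1.09 to 6.55), Hmga2 at 3.03%, Mycn at 3.205% and Igf2bp2 at 5.26% (3.71 to 7.24) had values within or below the gauge range. The intervals of Lin28a and Igf2bp2 reached past its top, and these genes could not be told apart from that range. Lin28b at 42.1% (28.6 to 60.2), Igf2bp1 at 27.6% (24.4 to 31.3), Hmga1 at 16.7% (12.98 to 21.1) and Igf2bp3 at 11.3% (9.05 to 13.98) were above it. Globin takes part of every erythroid-like total, and with globin left out of the totals these 4 values were 67.7%, 44.5%, 26.8% and 18.2%. The gauge genes then ran from 5.99% (Hapln1) to 9.03% (Plvap). In cells thinned to 5000 UMIs, 15.6% of erythroid-like cells had an Igf2bp1 UMI against 45.7% of the others, with median depths of 32399 and 23477 UMIs. Hmga2 was seen in 4.1% against 73.8%.

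**Figure D3:**
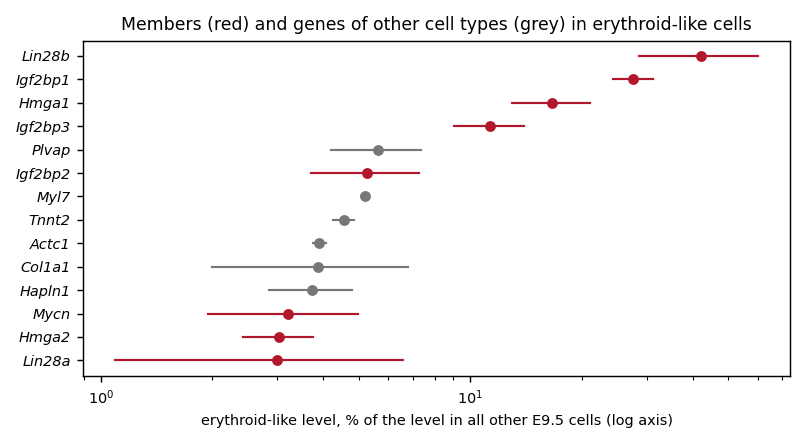
The level of each of the 8 genes in E9.5 erythroid-like cells is drawn as a percent of its level in all other E9.5 cells. The axis is a log axis, with 95% intervals, and 6 genes of other cell types are drawn beside them as a gauge of background. Lin28a, Hmga2, Mycn and Igf2bp2 lie among the gauge genes at 3.72% to 5.61% or below them, and Igf2bp3, Hmga1, Igf2bp1 and Lin28b lie above.

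Genes whose E9.5 pattern was most like that of a member were listed by Pearson r of log2(UMIs per 10000 + 0.1) over 16 clusters, among 8669 genes with at least 200 UMIs. For Lin28a they were Nudt10 (r = 0.96), Acsl3 and Crabp2, and the same 3 genes led over the 13 clusters without erythroid-like cells. For Mycn they were Carm1 (0.98), Hnrnpa0 and Psma7, and Carm1 and Hnrnpa0 were again among the 3 without erythroid-like clusters. The nearest genes were Psmg1 (0.95) for Lin28b, Hnrnph1 (0.97) for Igf2bp1, Bod1 (0.99) for Igf2bp2, Pkm (0.97) for Igf2bp3, Rce1 (0.97) for Hmga1 and Bod1 (0.98) for Hmga2. Without the erythroid-like clusters Psmg1 was again the nearest to Lin28b, but for the Igf2bp and Hmga genes none of the 3 nearest recurred. Among the members themselves, Mycn and Igf2bp1 had r of 0.95 over 16 and 0.86 over 13 clusters, Lin28a and Igf2bp3 0.81 and 0.88, and Hmga1 and Hmga2 0.77 and 0.08. Points share a library and, over 16 clusters, the low erythroid-like values.

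The next question was how far each gene remained in the valve. Lin28a and Lin28b were nearly absent from the valve libraries, Hmga2 was at a few percent of its E9.5 level, and Igf2bp3 at P0 was at 48.1% (24.4 to 86.3) and 100% (58.8 to 161) of its E9.5 level in endothelial-like cells and at 134% and 77.5% in the mesenchyme. Over all kept cells Lin28a had 0 UMIs in the E16.5 library and in both P0 libraries, at least 5.30-fold, 11.3-fold and 6.25-fold below E9.5 when 0 is set to 3 counts per library. Lin28b had 0, 1 and 0 UMIs, the last P0 value and the E16.5 value being at least 2.94-fold and 2.50-fold lower. The mix of cells differs between stages, so these whole-library values join composition and level, and fewer cells of a type and less RNA per cell cannot be told apart in them.

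Within matched cells the E16.5 library was too shallow to show a change in Lin28a. Endothelial-like cells had 30 Lin28a UMIs at E9.5 (0.143 per 10000), and 0 UMIs of 188446 at E16.5 allow up to 0.196 per 10000 by the exact interval. With both P0 libraries together, endothelial-like cells had 0 Lin28a UMIs, which allow up to 51.8% of the E9.5 level. Their Lin28b was at 12.8% of it (0.314 to 76.7). In the mesenchyme 0 Lin28b UMIs allow up to 68.6% of the level in E9.5 cushion cells, while Lin28a was already low at E9.5 (8 UMIs), so no loss of it could be seen there.

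With the P0 libraries together Hmga2, the architectural chromatin gene, was at 1.30% of its E9.5 level in endothelial-like cells (0.268 to 3.81) and at 1.75% in the mesenchyme (0.360 to 5.14). In endothelial-like cells Hmga2 was at 4.35 per 10000 at E9.5, 0 in the E16.5 library, and 0 and 0.131 in the P0 libraries. In the mesenchyme it was at 3.01 in E9.5 cushion cells, 0.0767 in E16.5 interstitial-like cells, and 0.0782 and 0 in P0 interstitial-like cells. E9.5 stood apart from every later library in both lineages, and the later libraries overlapped. The E16.5 mesenchyme held 2.55% of the E9.5 level (0.525 to 7.49), and E16.5 endothelial-like cells were at least 27.3-fold lower.

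Mycn was at 0.761 per 10000 in E9.5 endothelial-like cells, 0 in the E16.5 library, and 0 and 0.131 in the P0 libraries. In the mesenchyme it was at 1.09, then 0.0256, then 0 and 0.0536. As for Hmga2, E9.5 exceeded every later library. In endothelial-like cells Hmga1 was at 0.604, then 0 at E16.5, at least 3.79-fold lower, and then 0.232 and 0. In the mesenchyme Hmga1 was at 0.498, then 0.0256, then 0.0261 and 0.

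**Figure D4:**
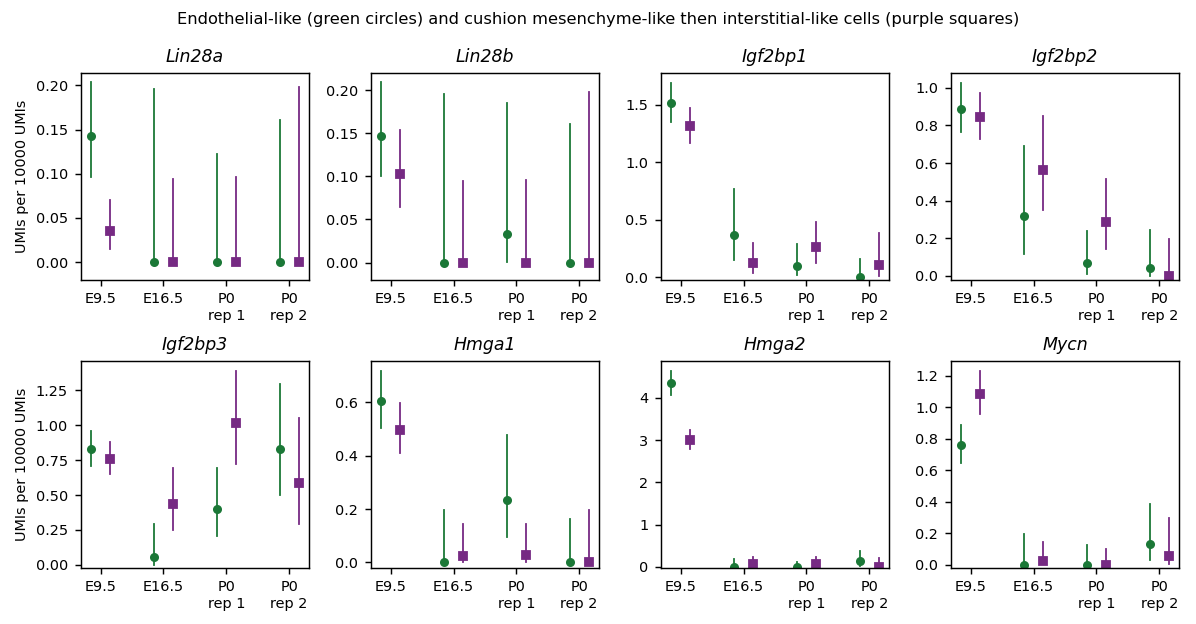
Levels of the 8 genes (UMIs per 10000 UMIs, linear axis from 0 whose range differs by gene) in each library, in endothelial-like cells (green circles) and in cushion mesenchyme-like cells at E9.5 or interstitial-like cells later (purple squares), with 95% Poisson intervals. Hmga2 and Mycn are high at E9.5 and at most 0.131 in the 3 valve libraries, whereas Igf2bp3 at P0 lies between 0.398 and 1.02.

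The Igf2bp genes parted after E9.5. Igf2bp1 in endothelial-like cells was at 1.51 per 10000 at E9.5, 0.371 in the E16.5 library (7 UMIs), and 0.0996 and 0 in the P0 libraries, and in the mesenchyme at 1.31, 0.128, and 0.261 and 0.107. Igf2bp2 in endothelial-like cells was at 0.889, 0.318 (6 UMIs), and 0.0664 and 0.0436, and in the mesenchyme at 0.845, 0.563 (22 UMIs), and 0.287 and 0. The E16.5 mesenchyme thus kept 66.6% of the E9.5 level of Igf2bp2 (40.8 to 104), an interval that includes no change. Igf2bp3 in endothelial-like cells was at 0.827 at E9.5, 0.0531 in the E16.5 library (1 UMI), and 0.398 and 0.828 in the P0 libraries (12 and 19 UMIs). In the mesenchyme Igf2bp3 was at 0.760, 0.435, and 1.02 and 0.590, so the P0 libraries lay on both sides of E9.5.

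The 3' end of Igf2bp3 overlaps that of Malsu1 on the opposite strand by 1529 bases (GENCODE vM21). Whether strand was used in counting is not given in the sources used here, so it is not known whether reads of the pair were kept apart. Malsu1, a mitochondrial ribosome assembly gene, was at 0.461 in E9.5 endothelial-like cells, 0.584 in those of E16.5, and 0.465 and 0.174 in those of P0. In the mesenchyme it was at 0.569, 0.946, and 0.443 and 0.536. The endothelial-like intervals of Malsu1 overlapped between E9.5 (0.374 to 0.563) and E16.5 (0.291 to 1.04). The 3' end of Hmga1 overlaps AI413582 by 102 bases, and AI413582 was at 0.109 in E9.5 endothelial-like cells, 0.159 in those of E16.5, and 0.299 and 0.0872 in those of P0.

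Stages were tested with edgeR's quasi-likelihood test on UMIs summed per library and class, and a gene was called at a Benjamini-Hochberg adjusted p under 0.05 if the single earlier library also lay above both P0 libraries or below both. The labels do not say whether separate litters gave the P0 libraries. The p-values therefore rest on how far these 2 libraries differ over all genes, which may be technical. The spread was pooled fully over genes, so a gene's own difference between the P0 libraries had no weight. Hmga1 in endothelial-like cells, with 7 and 0 UMIs in the P0 libraries, could thus still be called. Each SE printed with an edgeR value is the absolute log2 difference over the square root of the test's F statistic. It is thus not a separate measure of spread. Of the 4302 genes tested in endothelial-like cells 26.6% were called higher at E9.5 than at P0 and 24.6% lower. Of the 8 genes, 6 passed the filter on low counts, and since a gene can pass through its E9.5 level alone, their number is no support. Among these 6 only Igf2bp3 also reached the limit in a later library, so the calls of the others are no support either. Hmga2 was higher at E9.5 by 6.09 on the log2 scale (SE 0.50, adjusted p = 2.68e-31), Igf2bp1 by 4.58 (SE 0.56, adjusted p = 1.11e-14), Igf2bp2 by 3.81 (SE 0.65, adjusted p = 4.08e-08), Mycn by 3.57 (SE 0.74, adjusted p = 9.52e-06) and Hmga1 by 2.08 (SE 0.69, adjusted p = 0.00713). Igf2bp3 was not called, with 0.35 (SE 0.38, adjusted p = 0.444). With DESeq2 only Igf2bp1 kept its call (adjusted p = 0.0163), and the adjusted p was 0.106 for Igf2bp2, 0.604 for Hmga2, 0.770 for Mycn and 0.838 for Hmga1. Their DESeq2 log2 differences were 3.86, 5.88, 3.37 and 2.28, with SEs of 1.60 for Igf2bp2 and 5.62 to 5.64 for the other 3. Leaving out P0 replicate 1 and then replicate 2 gave 4.82 and 9.51 for Hmga2, 7.94 and 3.79 for Igf2bp1, 2.32 and 7.01 for Mycn, and 6.63 and 1.29 for Hmga1, so 1 library at or near 0 sets much of each value.

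In the mesenchyme, 20.7% of 3953 tested genes were called higher in E9.5 cushion cells than in P0 interstitial-like cells and 23.4% lower. Here Mycn, Hmga2 and Igf2bp1 passed the filter on low counts through their E9.5 level alone. Their calls are therefore no support for a programme high at E9.5, and the values only describe these libraries. Mycn was higher at E9.5 by 5.50 on the log2 scale (SE 0.80, adjusted p = 1.23e-10), Hmga2 by 5.48 (SE 0.53, adjusted p = 2.65e-23), Igf2bp1 by 2.32 (SE 0.45, adjusted p = 2.08e-06) and Igf2bp2 by 1.83 (SE 0.48, adjusted p = 0.000693) in edgeR's quasi-likelihood test. Igf2bp3 was not called, at -0.50 (SE 0.36, adjusted p = 0.25), and Hmga1, Lin28a and Lin28b did not pass the filter. With DESeq2 Hmga2 kept its call (adjusted p = 0.000274), while the adjusted p was 0.0549 for Mycn, 0.248 for Igf2bp1 and 0.784 for Igf2bp2, at log2 differences of 5.45 (SE 2.02), 2.44 (SE 1.25) and 2.20 (SE 2.99). The Igf2bp2 call also ended with coarser clusters and with a stricter doublet limit, under which 503 genes were called in place of 1742. Without P0 replicate 1 and then without replicate 2, the values were 9.04 and 4.90 for Hmga2, 3.88 and 7.66 for Mycn and 7.21 and 1.26 for Igf2bp2.

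Whether the stage difference itself differed between the lineages was tested by an interaction term. Both classes of each library entered that fit as independent, with no term for the library, so their pairing was ignored. Lin28a and Lin28b did not pass the filter and were not tested. None of the other members passed in edgeR. The smallest adjusted p among them was 0.166, for Igf2bp1, whose E9.5 to P0 difference was 2.14 larger on the log2 scale in endothelial-like cells (SE 0.93). Over all genes 9.58% passed that interaction.

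Between E16.5 and P0, 12.7% of genes were called higher at E16.5 and 9.46% lower in endothelial-like cells. Igf2bp1 was higher at E16.5 by 3.16 on the log2 scale (SE 0.95, adjusted p = 0.00694) and Igf2bp2 by 2.93 (SE 1.04, adjusted p = 0.0264), while Igf2bp3 was lower, at -2.98 (SE 1.07, adjusted p = 0.0292), all in edgeR. The Igf2bp3 call rests on 1 UMI at E16.5 and ended when no filter was used, when only these stages were fitted and when doublets were kept, and the Igf2bp2 call ended with no filter and with library totals as scaling, which put Igf2bp2 at 2.41, Igf2bp1 at 2.63 and Igf2bp3 at -3.49. With DESeq2 none of the 3 was called: the unadjusted p was 0.0333 for Igf2bp1, 0.0719 for Igf2bp2 and 0.105 for Igf2bp3, and DESeq2 gave no adjusted p. Without P0 replicate 1 the Igf2bp1 value was 6.53. In interstitial-like cells 30.2% of genes were called, 16.3% higher at E16.5 and 13.9% lower. There Igf2bp2 was higher by 2.06 (SE 0.59, adjusted p = 0.00271). That call ended with coarser clusters, with a stricter doublet limit and when only these stages were fitted, and its value without P0 replicate 1 was 7.44. With DESeq2 it had no adjusted p and was not called (log2 difference 2.48, SE 3.01, unadjusted p = 0.409). Hmga2 and Mycn were not called between E16.5 and P0 in either class, nor was Hmga1 in endothelial-like cells. Hmga1 did not pass the filter in interstitial-like cells. These genes had 0 to 7 UMIs per valve library in these classes, so the lack of a call does not show an unchanged level.

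**Figure D5:**
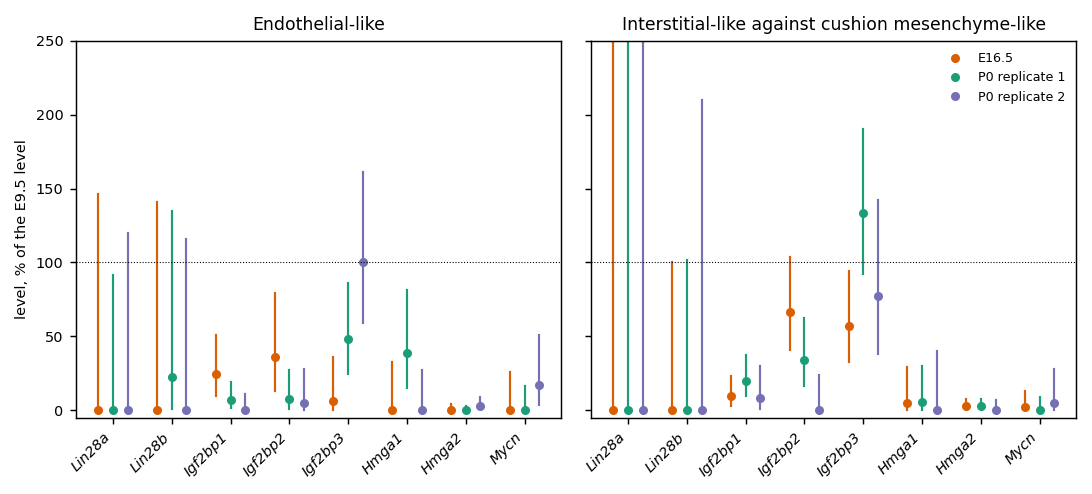
Level of each gene at E16.5, P0 replicate 1 and P0 replicate 2 as a percent of its E9.5 level, in endothelial-like cells and in interstitial-like against cushion mesenchyme-like cells, with 95% intervals and a line at 100%. The y axis ends at 250%, past which the mesenchymal Lin28a intervals run. Igf2bp3 spans 100% at P0 except in endothelial-like cells of P0 replicate 1, at 48.1% (24.4 to 86.3), and all Hmga2 points are at or under 3.01%.

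Some valve cells outside these lineages still held members of the programme. In capillary or coronary endothelial-like cells Mycn was at 0.154 at E16.5 (3 UMIs) and 0.308 and 0.241 at P0 (14 and 8 UMIs), and Hmga2 at 0.102, and 0.198 and 0.211. In P0 replicate 1 the 14 Mycn UMIs of capillary-like cells faced 0 in endothelial-like cells, a ratio of at least 2.20 by its interval. In P0 replicate 2 they were 8 against 3, a ratio of 1.85 (0.44 to 10.8), so the difference was not detectable there. No member passed the filter for the test in this class, where 35.9% of 3446 genes were called, 18.3% higher at E16.5 and 17.6% lower. At E16.5 10 smooth muscle or pericyte-like cells had 6 Igf2bp2 UMIs (1.81 per 10000), and at P0 replicate 2 12 macrophage-like cells had 15 Igf2bp3 UMIs (1.61), beside a Malsu1 level of 0.754. Unnamed P0 clusters held members too, so Hmga2 was not particular to capillary-like cells. At replicate 1 Hmga2 was at 0.272 in the cluster led by Dlk1 and Aspn, 0.182 in that led by Hist1h2ap and Pf4 and 0 in that led by Ahsg. At replicate 2 it was at 0.193 in the cluster led by Aspn and Myl2. Igf2bp2 was at 0.543 in the Dlk1-led and 0.387 in the Aspn-led cluster.

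Genes linked to the members changed in several directions between E9.5 and P0. Their counts stand beside 26.6% of all genes tested called higher at E9.5 and 24.6% lower in endothelial-like cells, and 20.7% and 23.4% in the mesenchyme. Of the let-7 biogenesis and Lin28 partner list, 4 genes were tested in endothelial-like cells, and 2 were higher and 2 lower at E9.5 (median log2 difference -0.06). Prkra, a Dicer partner, was higher by 1.92 on the log2 scale, and Zcchc6 and Zcchc11, the uridylating enzymes that work with LIN28 on let-7 precursors, differed by -1.59 and -1.31. In the mesenchyme 2 of 3 were higher, Tarbp2 by 1.996 and Prkra by 1.01. Of other reported let-7 target genes 3 of 8 were higher and 3 lower in endothelial-like cells, with Arid3a at 2.77, E2f5 at 1.54 and Igf1r at -1.67, and 0 of 9 were higher and 2 lower in the mesenchyme, Tgfbr1 at -2.09 and Cdk6 at -2.01. The median over all genes tested was 0.00 in endothelial-like cells and -0.01 in the mesenchyme.

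Of the IGF axis and IGF2BP-bound transcripts, 1 of 9 was higher and 5 lower at E9.5 in endothelial-like cells, where 26.6% and 24.6% of all genes were. Igf2, the growth factor whose mRNA gave the IGF2BP family its name, was lower by a log2 difference of -3.56 (SE 0.36), and the imprinted genes Plagl1 and Dlk1 differed by -1.74 and 1.81. In the mesenchyme 2 of 10 were higher and 5 lower (20.7% and 23.4% of all genes), with Plagl1 at 3.88, Dlk1 at -1.81 and Cd44 at -4.20, so Plagl1 and Dlk1 had opposite signs in the lineages. Of the Myc network 1 of 3 was higher (Max, 1.08) and 1 lower (Mxd4, a MYC antagonist, -2.86) in endothelial-like cells, and Mxd4 was lower in the mesenchyme at -1.89. Of the ribosome biogenesis genes, a MYC target group, 8 of 10 were higher at E9.5 in endothelial-like cells, led by Srm at 2.46, Npm1 at 2.40 and Nop56 at 2.33. In the mesenchyme 6 of 10 were higher and 1 lower, with Npm1 at 1.39, Nolc1 at 1.25 and Ddx21 at -1.43.

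Against the same shares of all genes (26.6% higher and 24.6% lower in endothelial-like cells, 20.7% and 23.4% in the mesenchyme), 4 of 7 other high mobility group genes were higher and 1 lower in endothelial-like cells, with Hmgb2 at 2.25, Hmgn1 at 1.77 and Hmgb3 at 1.75, and 3 of 6 were higher and 3 lower in the mesenchyme, with Hmgn3 at -1.98 and Hmgb1 at -1.44. Cell cycle genes were higher at E9.5 for 16 of 17 in endothelial-like cells (Cdk1 at 5.80, Rrm2 at 5.53, Ube2c at 5.37) and for 12 of 17 in the mesenchyme (Mcm2 at 3.37, Rrm2 at 2.76, Tyms at 2.37). Hmga2 and Mycn were higher at E9.5 in the same cells. The part of cell cycling in the members' levels was not tested. Immediate early and heat shock genes, which respond to tissue dissociation, were lower at E9.5 for 9 of 12 and for 13 of 14, with Fos at -3.94 and -5.73. Their part in the members' differences was not tested either.

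Between E16.5 and P0 some of the lists are given, beside 12.7% of all genes called higher at E16.5 and 9.46% lower in endothelial-like cells and 16.3% and 13.9% in interstitial-like cells. In endothelial-like cells 6 of 17 cell cycle genes were higher at E16.5 (Cdk1 at 4.34), and 3 of 7 high mobility group genes (Hmgb1 at -2.30) were lower. In interstitial-like cells all 6 high mobility group genes tested were lower at E16.5 (Hmgb1 at -2.85), 4 of 10 ribosome biogenesis genes were lower (Ddx21 at -2.77) and of 10 IGF axis genes 4 were higher (Plagl1 at 3.02, Dlk1 at 2.39) and 2 lower (Meg3 at -2.41, Actb at -1.78). Dlk1 was also higher at E16.5 in endothelial-like cells, at 4.44 (SE 0.54). Immediate early and heat shock genes were lower at E16.5 for 5 of 12 in endothelial-like cells and for 8 of 14 in interstitial-like cells, where 2 were higher. Of 17 cell cycle genes in interstitial-like cells, 4 were higher and 1 lower. The part of either list in the members' differences was not tested.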

How the data were processed

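The authors deposited 3' single-cell UMI count matrices, not normalized, made with Cell Ranger 2.1.1 on mm10 per the submitters' processing notes. Whether counting used strand is not given in the sources used here. Cells with at least 500 genes and at most 10% mitochondrial UMIs were kept (1194, 311, 282 and 176). Cells with a Scrublet score over 0.21 (scanpy 1.11.5) were removed as doublets (5, 6, 1 and 2 cells), a score set after the data were seen because the automatic threshold moved with the processor. Cells were clustered per library on 2000 variable genes without the 8 members (20 components, 15 neighbours, Leiden resolution 1.0) and named from fixed marker lists. The total of the kept cells was 30533053, 845073, 1807069 and 995332 UMIs. Levels are summed UMIs over class totals, with exact 95% intervals that cover counting error only, and an observed 0 is set to 3 counts. Raw counts were summed per library and class and tested with edgeR 4.0.16 (TMM scaling, quasi-likelihood, 1 residual degree of freedom, so that the spread is pooled over genes). A gene was tested if any library reached the CPM that 10 counts make in the shallowest library. DESeq2 1.42.0 was an alternative. The test was tested on simulated data. The rule names all 8 members, whose levels in small classes and outside the largest differences are given in part or as ranges, and of each other list up to 3 passing genes with the largest absolute log2 fold. For likeness the 3 highest correlations are named. The members and lists were chosen with earlier results of these data known. The P0 barcode lists, of 211 and 291 cells, share 4 barcodes. Some results are not reported here.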

Additional observations from a re-analysis of the deposited data

How the results depend on the processing

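Under every alternative run, no result of the members that had been called changed direction. The number of members at least 2-fold apart across E9.5 classes was 4 without erythroid-like cells, an alternative chosen after seeing the data, and 8 otherwise. DESeq2 called fewer genes in each comparison: 511 against 2203 for E9.5 and P0 endothelial-like cells, 315 against 955 for E16.5 and P0 endothelial-like cells, 498 against 1742 for E9.5 cushion and P0 interstitial-like cells, 389 against 1193 for E16.5 and P0 interstitial-like cells and 383 against 1237 for capillary-like cells. Of these DESeq2 calls 511, 312, 496, 389 and 383 were also edgeR calls, and the cause of the gap was not tested. With doublets kept and no mitochondrial limit, 754 genes were called for E16.5 and P0 interstitial-like cells. With doublets removed over a score of 0.14, an alternative chosen after seeing the data, the count was 503 for E9.5 cushion and P0 interstitial-like cells and 493 for E16.5 and P0 interstitial-like cells. The other 37 gene or class counts stayed within 1.5 times. Leaving out either P0 library left no residual degrees of freedom, so those settings give values without a test, as printed beside the members. No paired analysis was possible because the E9.5 and E16.5 groups have 1 library each and so share fewer than 2 replicate numbers with P0. Depth limits Lin28a and Lin28b most, since matched valve classes hold 186582 to 390975 UMIs.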
